A study of Capra hircus with 6 samples.

Results

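The genes described here encode upstream regulators of the Hippo pathway that sit at cell junctions or on the cell cortex: the scaffold genes WWC1, WWC2 and WWC3, the angiomotin genes AMOT, AMOTL1 and AMOTL2, the phosphatase gene PTPN14, the FERM domain gene FRMD6 and the tight junction scaffold gene TJP1. All 9 were found by symbol among the 16285 genes in the deposited tables. They were chosen by family, and the choice was made on measured values too: the set was proposed after WWC1 and WWC2 had been seen to differ in opposite directions between the 2 groups compared below. The levels of the 9 genes are therefore given as a description. A fit over all genes included 8 of them, but its calls and intervals for these are not read as tests. Tests are kept for other genes of the pathway, although their lists too were chosen with earlier results of these data known. The study took adipose mesenchymal stem cells of the goat (Capra hircus), stromal cells of fat that grow in culture and can be induced to become adipocytes, and sequenced total RNA from 3 control libraries (genotype label WT) and 3 libraries with a label of YAP overexpression. Treatment for adipogenic differentiation is recorded for both groups. The series' design text speaks of a line overexpressing TAZ, whereas the sample labels name YAP. Neither the animals, the vector, the number of clones nor the time of differentiation is stated in the labels, and replicates are not said to be separate cultures, so error values and p-values measure only how far these samples spread, possibly for technical reasons.

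In the Hippo pathway, a chain of kinases ends in LATS, which phosphorylates the coactivators YAP and TAZ and keeps them out of the nucleus, where they would act with TEAD factors. WWC proteins bind LATS and the tumour suppressor NF2 and promote that phosphorylation. Angiomotins bind YAP directly and hold it at junctions and on actin filaments, and they also bind NF2 and LATS. PTPN14 binds both YAP and WWC1, FRMD6 is a relative of the fly Hippo regulator Expanded, and TJP1 links junction proteins to actin and can bind TAZ. In mesenchymal stem cells, YAP and TAZ respond to cell shape, contact and matrix stiffness and influence the choice between fat and bone fates.

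Levels are FPKM, fragments counted on a gene scaled by its length and by the library total, and whole reads recovered from them gave totals of 32593380 to 37131015 fragments per library. YAP1, the gene named in the labels, stood at 25.8, 27.0 and 28.9 FPKM in control replicates 1 to 3 and at 28.4, 25.6 and 28.2 in the libraries labelled YAP. The YAP1 transcript was thus not higher in that group (log2 change 0.01, SE 0.08, 95% confidence interval -0.17 to 0.19, limma adjusted p = 0.95), and every direction below is that of the labelled group, not of a measured rise in YAP1. The values cover reads assigned to the YAP1 gene. As the vector is not stated, whether transcripts from it would be counted there is not known. Markers of the labelled cell type were abundant and differed between the groups in both directions. All 10 stromal genes examined passed the filter, and 6 of the 10 were called higher and 2 lower. Over all tested genes, 12.9% were called higher and 23.0% lower. The share of higher calls among stromal genes was thus far above that of all tested genes, and the share of lower calls was close to it. DCN averaged 1430 FPKM in controls and 2767 in those labelled YAP, NT5E 170.3 and 127 FPKM, and PDGFRA, which was not called, 172 and 203 FPKM. Of the 7 adipocyte markers found, 1 was tested: CIDEC averaged 18.3 and 9.56 FPKM and was called lower. PLIN1 had 15, 20 and 12 reads against 25, 27 and 22, while PPARG and LPL had at most 4 reads in any library. Of the 8 leukocyte markers 2 were tested. CD68, a gene of macrophage lysosomes, averaged 4.53 and 2.03 FPKM and was called lower, and LAPTM5 averaged 9.47 and 10.2 FPKM and was not called. CD3E had 27, 25 and 32 reads against 8, 7 and 11, PTPRC had at most 1 read and AIF1 had 0. The part of these shifts in the values below was not tested.

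Opposite directions of WWC1 and WWC2 had led to this set, so the place of the pair among the 9 genes restates that choice. WWC1 was lower and WWC2 higher in every library labelled YAP than in any control, AMOT was lower at a very low level, WWC3 was lower by a narrow margin, and the other 5 had overlapping groups. A total of 4 of the 9 had groups that did not overlap, 3 of them among the 8 genes that passed the expression filter of at least 1 FPKM in at least 3 libraries. Groups did not overlap in 48.3% of all 10761 tested genes. At limma adjusted p 0.05 the fit across all genes called 4 of the 8, WWC2 as higher and WWC1, WWC3 and AMOTL1 as lower, where it called 35.9% of all tested genes (12.9% higher and 23.0% lower). Because the genes were chosen with this contrast known, nothing is read from that count. The median log2 change of the 8 was -0.14 and that of all tested genes -0.10. After median-of-ratios scaling the fit called 2 of the 8, as it also did without control replicate 1 or 3 and without replicate 1 or 2 labelled YAP, and the share of all calls that were lower went from 64.0% to 47.0%.

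**Figure D1:**
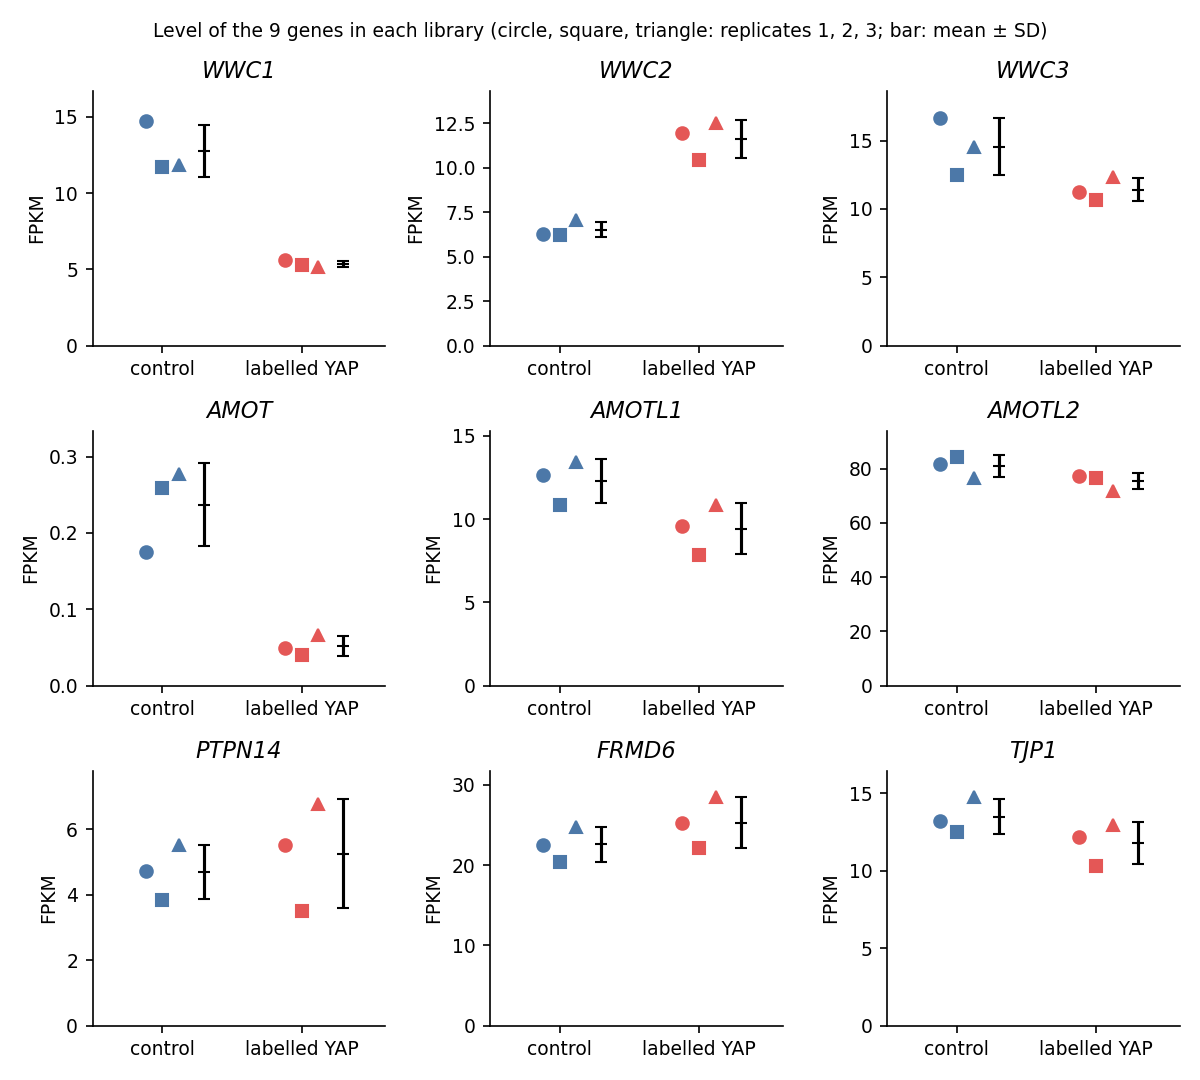
FPKM (y axis, from 0, with its own scale in each panel) of the 9 genes in the 3 control libraries (blue) and the 3 libraries labelled YAP (red); circles, squares and triangles are replicates 1, 2 and 3, and black bars are the mean ± SD. WWC1, WWC2, WWC3 and AMOT have groups that do not overlap, and in 6 panels the squares are the lowest points of both groups.

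The order of levels, which FPKM allows because it is scaled by gene length, was led in both groups by AMOTL2. In controls AMOTL2 (80.8 FPKM) was followed by FRMD6 (22.6), then by WWC3 (14.6), TJP1 (13.5), WWC1 (12.8) and AMOTL1 (12.3), whose neighbouring ranges overlapped, then by WWC2 (6.52), PTPN14 (4.70) and AMOT (0.24), each apart from its neighbour. In the libraries labelled YAP, AMOTL2 (75.3) and FRMD6 (25.3) kept their places. TJP1 (11.8), WWC2 (11.6), WWC3 (11.4) and AMOTL1 (9.43) formed the middle of that order with overlapping neighbours, and WWC1 (5.36) had moved down beside PTPN14 (5.26), with overlapping ranges. WWC1 thus went from rank 5 to rank 7, and WWC2 from rank 7 to rank 4.

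WWC1 encodes KIBRA, the best known scaffold of the family. Its level was 14.7, 11.7 and 11.8 FPKM in control replicates 1 to 3 and 5.60, 5.30 and 5.18 FPKM in replicates 1 to 3 labelled YAP. The highest value labelled YAP was below the lowest control, and control replicate 1 was the highest library. The means were 12.8 ± 1.71 and 5.36 ± 0.22 FPKM (SD, n = 3 each), a 2.38-fold lower level, with a log2 change of -1.11 (SE 0.10) on the log2(FPKM + 1) scale. Each WWC1 value rested on 722 to 2152 reads. In bulk RNA such as this, fewer cells of a type and less RNA per cell cannot be told apart.

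WWC2, a paralog with the same domain plan, showed the opposite. It stood at 6.30, 6.23 and 7.04 FPKM in the controls and at 11.9, 10.4 and 12.5 in those labelled YAP. All 3 of the latter lay above all controls. The means were 6.52 ± 0.45 and 11.6 ± 1.07 FPKM (SD, n = 3 each), a ratio of 1.78 and a log2 change of 0.75 (SE 0.09), from 1425 to 3137 reads per library.

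WWC3, the remaining family member, gave 16.7, 12.5 and 14.6 FPKM in the control libraries against 11.2, 10.7 and 12.3 in those labelled YAP. The groups were separated narrowly, by the gap between 12.3 and 12.5 FPKM. The mean went from 14.6 ± 2.10 to 11.4 ± 0.84 FPKM (SD, n = 3 each; log2 change -0.32, SE 0.11), a difference of 21.6% of the control mean.

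Summed over the family, WWC transcripts amounted to 37.7, 30.4 and 33.4 FPKM in the control libraries against 28.8, 26.4 and 30.0 in those labelled YAP. The summed levels lay close together, with the highest library labelled YAP just under the lowest control, while the makeup of the sum differed. WWC1 supplied 37.7 ± 1.96% of family FPKM in the control libraries against 18.9 ± 1.49% in the libraries labelled YAP, and WWC2 supplied 19.4 ± 2.37% and 40.9 ± 1.20% (SD, n = 3 each). The share of WWC3 was 42.9 ± 1.68% and 40.2 ± 1.02%. The ratio of WWC1 to WWC2, which no scaling of a whole library can alter, was 2.34, 1.87 and 1.68 in the control libraries against 0.47, 0.51 and 0.41 in those labelled YAP. WWC1 was the more abundant of the pair per length in every control and the less abundant in every library labelled YAP.

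**Figure D2:**
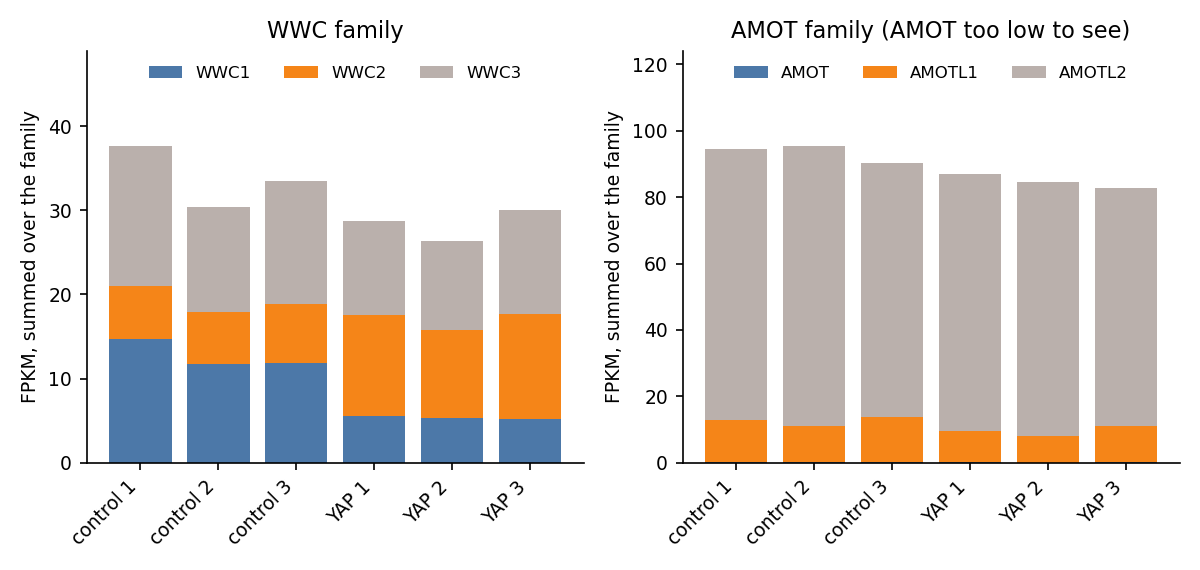
Stacked bars of FPKM (y axis, from 0) in each of the 6 libraries (x axis) for the WWC family (left) and the angiomotin family (right), with 1 colour per gene. WWC1 and WWC2 exchange their shares of a sum that lies between 26.4 and 37.7 FPKM, whereas AMOTL2 makes up most of every bar on the right, where AMOT is too low to be visible.

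Among the angiomotins, AMOTL2 was the main transcript. It is itself a known target of YAP and TAZ, and thus a feedback inhibitor of them. AMOTL2 stood at 81.6, 84.4 and 76.5 FPKM in the control libraries against 77.5, 76.6 and 71.9 in those labelled YAP. The groups overlapped, with means of 80.8 ± 4.03 and 75.3 ± 3.01 FPKM (SD, n = 3 each; log2 change -0.10, SE 0.08), close to the median change of all tested genes. It made up 86.5 ± 1.80% of angiomotin FPKM in the control libraries against 88.8 ± 1.94% in the libraries labelled YAP.

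AMOTL1, a junctional angiomotin, had 12.7, 10.8 and 13.4 FPKM in the control libraries against 9.59, 7.84 and 10.9 in those labelled YAP. Replicate 3 labelled YAP reached the level of control replicate 2, so the groups overlapped. The means were 12.3 ± 1.34 and 9.43 ± 1.52 FPKM (SD, n = 3 each), a log2 change of -0.36 (SE 0.12).

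AMOT, the founding angiomotin, was detected at a very low level. It gave 37, 53 and 58 reads in the control libraries against 11, 8 and 15 in those labelled YAP, or 0.17, 0.26 and 0.28 FPKM and 0.05, 0.04 and 0.07 FPKM. For this gene 3 reads, taken as the floor, correspond to at most 0.015 FPKM, so all 6 libraries lay above it. The groups did not overlap, and the mean level was 4.54-fold lower in the libraries labelled YAP (0.24 ± 0.05 and 0.05 ± 0.01 FPKM, SD, n = 3 each), with a log2 change of -0.23 on the log2(FPKM + 1) scale, where the pseudocount compresses it. AMOT did not pass the filter. It passed when the filter was lowered to 0.1 FPKM, through the controls alone, a condition that by itself makes the groups differ.

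Angiomotin is known from endothelial and epithelial cells, so the markers of these cells stand beside the AMOT values. Of 8 endothelial markers found, CDH5, KDR, TIE1 and ROBO4 had at most 1 read in any library, and the others went in different directions. PECAM1 had 51, 32 and 50 reads in controls but 3, 2 and 12 in those labelled YAP, whereas VWF had 10, 12 and 7 against 31, 29 and 36, and TEK had 10, 4 and 15 against 17, 15 and 16. The summed level of the endothelial list, mostly EGFL7, was 15.1 to 22.1 FPKM in the control libraries against 12.8 to 17.0 in those labelled YAP. Of 10 epithelial markers, 6 had at most 3 reads in any library, KRT18 among them with 0 throughout. The cadherin gene CDH1 had 10, 19 and 33 reads in controls but 2, 0 and 0 in those labelled YAP. KRT8 had 3, 9 and 16 reads against 4, 6 and 11, and CLDN3 had 15, 6 and 15 against 7, 3 and 4, both with overlapping groups. The claudin gene CLDN4, the only epithelial marker tested, had 83, 47 and 37 reads against 89, 105 and 62, with overlapping groups, and was not called. The summed epithelial list ran from 1.22 to 1.78 FPKM and from 1.25 to 2.10 FPKM. The part of such cells in the AMOT values was not tested.

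PTPN14, FRMD6 and TJP1 differed little between groups in relation to their spread. PTPN14, a phosphatase that binds YAP, had 4.73, 3.86 and 5.52 FPKM in the control libraries against 5.51, 3.50 and 6.78 in those labelled YAP. The second group enclosed the range of the first, and the log2 change was 0.11 with the widest error of the set (SE 0.18, 95% confidence interval -0.28 to 0.50). Without YAP replicate 3 its sign changed (-0.06), and without control replicate 2 it was all but 0 (-3.6e-04).

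FRMD6 had 22.6, 20.4 and 24.8 FPKM in the control libraries against 25.2, 22.1 and 28.5 in those labelled YAP. The groups overlapped, with means of 22.6 ± 2.20 and 25.3 ± 3.18 FPKM (SD, n = 3 each; log2 change 0.15, SE 0.10, interval -0.08 to 0.38). TJP1 had 13.2, 12.5 and 14.8 FPKM in the control libraries against 12.2, 10.3 and 13.0 in those labelled YAP. These groups overlapped too, at means of 13.5 ± 1.15 and 11.8 ± 1.36 FPKM (SD, n = 3 each; log2 change -0.18, SE 0.10, interval -0.40 to 0.04).

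The 9 genes shared a property that played no part in their choice, a long transcript: gene lengths implied by the recovered reads ran from 4180 bases (WWC1) to 9382 bases (AMOTL1), and all 9 exceeded the median of tested genes, 2958 bases. Replicate 2 was the lowest library of both groups for 6 of the 9, namely WWC2, WWC3, AMOTL1, PTPN14, FRMD6 and TJP1. Among all tested genes this held for 25.2%, and among tested genes of 4000 to 10000 bases for 47.7%. In that length class replicate 2 lay below the mean of replicates 1 and 3 by a median log2 difference of -0.11 in both groups, whereas genes of up to 1000 bases lay above it by 0.16 among controls and by 0.19 among those labelled YAP. PTPN14 showed the largest gap of the set, -0.33 among controls and -0.66 among those labelled YAP, and AMOTL2 had the opposite sign, 0.09 and 0.04. Between the groups, gene length made less difference: the median log2 change was -0.14 for genes of up to 1000 bases and -0.08 for those of 4000 to 10000 bases. The part of gene length in the spread of these genes was not tested.

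**Figure D3:**
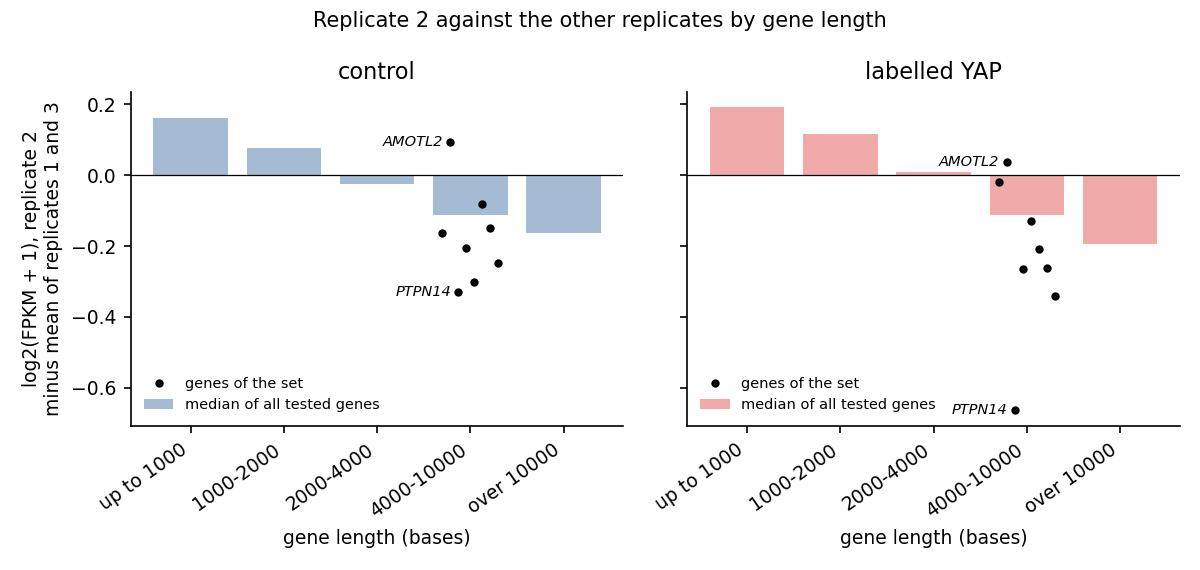
Difference in log2(FPKM + 1) between replicate 2 and the mean of replicates 1 and 3 (y axis) by gene length in bases (x axis), in controls (left) and in libraries labelled YAP (right); bars are medians of all tested genes in a length class and points are the 8 tested genes of the set, in order of length within their class. The bars go from 0.16 and 0.19 for the shortest genes to -0.16 and -0.19 for the longest, and PTPN14 is the lowest point in both panels.

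Around this set, other genes of the pathway were taken from 6 lists, with 64 of their 78 genes tested: 10 were higher, 14 lower and 40 not past the threshold (limma adjusted p 0.05), with a median log2 change of -0.14. Levels are given as mean ± SD (n = 3 each), control first. The 24 calls made up 37.5% of those tested, near the 35.9% of all tested genes. Such shares depend on scaling: by the median of ratios 12 of the 64 were higher and 14 lower, while calls over all tested genes went from 3868 to 3209. Of the 24, 11 lay among junction and polarity genes and 2 among kinases and adaptors. In the list of Hippo kinases and adaptors, 0 of 12 rose and 2 fell (median log2 change -0.17), or 16.7% called. After median-of-ratios scaling 1 of the 12 was called higher, and with the replicate block 4 were called lower. MAP4K4, a kinase that acts on LATS in parallel to the Hippo kinases, fell from 35.3 ± 3.02 to 25.6 ± 1.24 FPKM (limma adjusted p = 0.0022). STK3, a Hippo kinase, fell from 9.29 ± 1.61 to 6.37 ± 0.46 FPKM (limma adjusted p = 0.0077). NF2, the FERM protein that binds both WWC1 and angiomotins, stood at 20.8 ± 1.75 and 18.4 ± 0.37 FPKM and did not pass (limma adjusted p = 0.134).

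Of the 7 genes for YAP, TAZ and their TEAD partners, 0 rose and 1 fell (median log2 change 0.04), or 14.3% called, beside 35.9% of all tested genes. WWTR1, which encodes TAZ, fell from 32.0 ± 3.38 to 21.4 ± 1.98 FPKM (limma adjusted p = 0.0013). The transcript of TAZ, named in the design text, was thus not higher in the libraries labelled YAP either, with the same limit on transcripts from a vector as for YAP1. TEAD3 stood at 31.2 ± 2.23 and 35.9 ± 2.35 FPKM (limma adjusted p = 0.092) and passed once the libraries were rescaled by the median of ratios (limma adjusted p = 0.031). With that scaling 1 of the 7 was higher and 1 lower, while fewer of all tested genes were called (3209 in place of 3868). VGLL4, a competitor of YAP for TEAD, stood at 7.96 ± 0.75 and 9.09 ± 0.37 FPKM (limma adjusted p = 0.162).

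Of 33 junction and polarity genes, 21 were tested, of which 7 rose and 4 fell (median log2 change -0.11), or 33.3% and 19.0% where all tested genes gave 12.9% and 23.0%. NECTIN2, an adhesion molecule, rose from 2.48 ± 0.28 to 4.57 ± 0.34 FPKM (limma adjusted p = 0.00031). PRKCI, the atypical protein kinase C of the polarity complex, fell from 9.04 ± 1.55 to 4.51 ± 0.46 FPKM (limma adjusted p = 0.00028), a log2 change of -0.86 ± 0.12 (SE). Others that rose were AFDN, F11R, CTNNB1, CDH2 and DCHS1, and the other 3 that fell were LIN7C, DLG1 and CDH11, named here after their values were seen. The CDH11 call was lost under quantile normalization (limma adjusted p = 0.058). F11R passed the filter only through the libraries labelled YAP, where it was above 1 FPKM, and so had to be higher there.

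LIM domain proteins, several of which inhibit LATS at junctions, gave 2 of 6 that rose, 1 that fell and 3 that were not called (median log2 change -0.12), or 33.3% and 16.7% beside 12.9% and 23.0% of all tested genes. ZYX, a focal adhesion protein, fell from 518 ± 57.1 to 311 ± 33.0 FPKM (limma adjusted p = 0.00029). WTIP rose from 7.98 ± 0.89 to 10.9 ± 0.79 FPKM (limma adjusted p = 0.0073). AJUBA rose from 53.3 ± 0.81 to 64.7 ± 2.59 FPKM (limma adjusted p = 0.0122), a call that was lost without YAP replicate 1 (limma adjusted p = 0.086).

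Enzymes that control the turnover of angiomotins gave 1 higher and 2 lower of 9 tested (median log2 change -0.15), or 33.3% called, near the 35.9% of all tested genes. ITCH, a ubiquitin ligase, fell from 23.7 ± 1.87 to 17.5 ± 0.52 FPKM (limma adjusted p = 0.0028). NEDD4L, a related ligase, fell from 2.75 ± 0.25 to 1.92 ± 0.12 FPKM (limma adjusted p = 0.0112). WWP2 was called only at the edge of the threshold, at 6.83 ± 0.78 and 8.36 ± 0.09 FPKM (limma adjusted p = 0.0498). That call was lost when any single library other than control replicate 3 was left out (limma adjusted p from 0.051 without control replicate 1 to 0.18 without control replicate 2).

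Of 11 other FERM domain genes, relatives of FRMD6 and PTPN14, 9 were tested, with 0 higher and 4 lower (median log2 change -0.29), or 44.4% lower beside 23.0% of all tested genes. FRMD4A fell from 10.3 ± 0.92 to 6.56 ± 0.68 FPKM (limma adjusted p = 9.9e-04). MSN, the actin linker moesin, fell from 327 ± 11.2 to 241 ± 14.0 FPKM (limma adjusted p = 0.0013), and FRMD8 fell from 12.6 ± 1.02 to 8.82 ± 0.11 FPKM (limma adjusted p = 0.0017). FRMD4B, the fourth, fell from 12.4 ± 0.67 to 9.68 ± 0.54 FPKM (limma adjusted p = 0.0113, and 0.069 without YAP replicate 1).

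**Figure D4:**
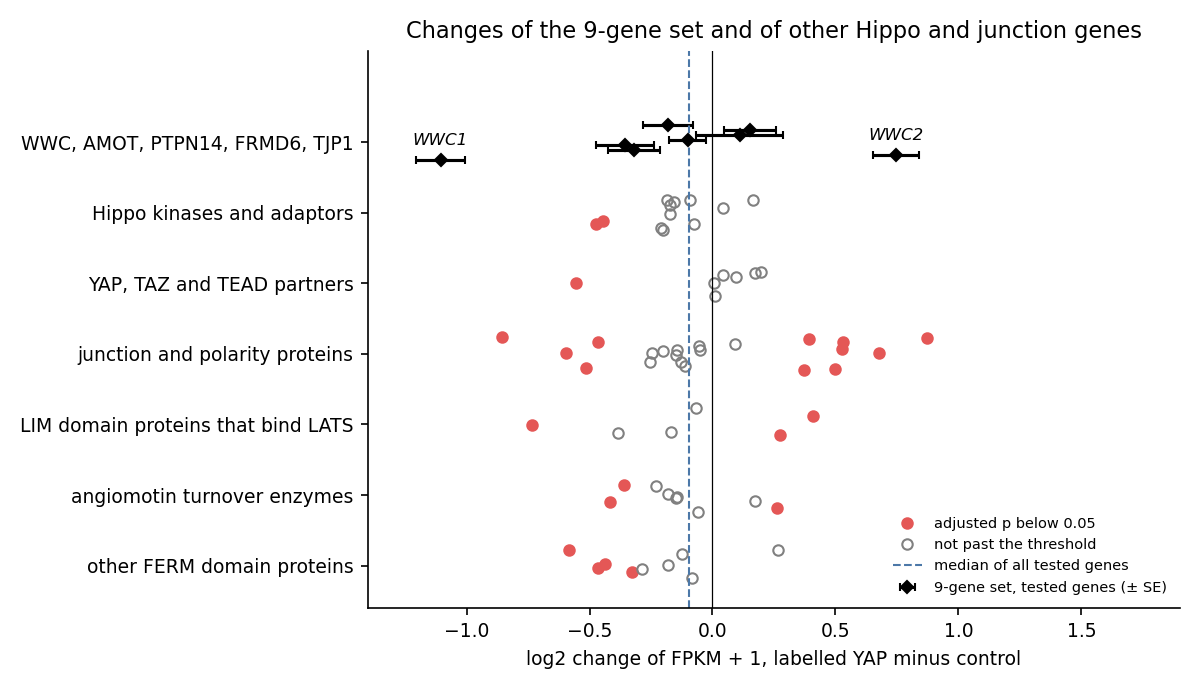
Log2 change of FPKM + 1, libraries labelled YAP minus control (x axis), for the 8 tested genes of the set (black diamonds with SE, top) and for 64 other genes in 6 lists (circles, filled red where limma adjusted p was below 0.05); vertical spread within a line has no meaning, and the dashed line marks the median of all tested genes, -0.10. WWC1 at -1.11 lies to the left of every other gene drawn, and WWC2 at 0.75 to the right of every other gene of the set. Both directions were known when the set was chosen.

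The pathway annotation in the authors' deposited table places 3 of the 9 genes (WWC1, AMOT and FRMD6) in Hippo signaling and 4 (AMOT, AMOTL1, AMOTL2 and TJP1) in the tight junction pathway, and gives neither to WWC2, WWC3 or PTPN14. Of 98 tested genes annotated to Hippo signaling, 15 rose and 31 fell (15.3% and 31.6%, beside 12.9% and 23.0% of all tested genes; median log2 change -0.15). Of the 98 annotated to tight junctions, 12 rose and 29 fell (12.2% and 29.6%; median -0.14). Of 59 annotated to adherens junctions, where TJP1 is also placed, 11 rose and 13 fell (18.6% and 22%; median -0.11). These annotated lists include genes of the set and were added after the data had been seen.

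The genes whose profile over the 6 libraries was most like that of WWC1, by the root mean square difference of centred log2(FPKM + 1), were TLL2, a tolloid-like protease gene (difference 0.08, means 23.7 and 11.2 FPKM), the phosphate transporter gene SLC20A1 (0.09, 40.7 and 20.5 FPKM) and the membrane protein gene TM4SF1 (0.09, 139 and 63.6 FPKM). For WWC2 they were the potassium channel gene KCNJ15 (0.04, 1.69 and 3.36 FPKM), the stress kinase gene MAP3K5 (0.04, 0.98 and 2.26 FPKM) and PURG (0.04, 0.83 and 2.09 FPKM). At such low levels the pseudocount compresses a change, so a like profile on this scale does not mean an equal ratio of FPKM. PURG and MAP3K5 passed the filter through the libraries labelled YAP, since fewer than 3 controls reached 1 FPKM.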

How the data were processed

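Per the labels' protocols, the authors used TRIzol for RNA and a VAHTS Universal V6 kit for libraries. HTSeq, HISAT2 and fastp appear in the submitters' processing notes, with no version or setting. No genome build, annotation, strand setting or rule for multi-gene reads is named in the sources used here. Each group has its own table of FPKM values, deposited by the authors and scaled library by library. A total of 6 further per-sample columns match no sample and were not used. Groups and replicate numbers came from the sample titles, and columns were matched to them by name. Symbols were those of the tables, of which 16262 of 16285 matched RefSeq assembly ARS1.2 (names only, no coordinates).

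Whole reads were recovered from the steps of the FPKM values. With 1 gene length for both tables, reads were whole within 0.05 for 15957 of 15958 genes above 0 and for 99.997% of values, so the tables were compared directly. Linear models in limma 3.58.1 (R 4.3.3) were fitted to log2(FPKM + 1), a pseudocount of 1, for the 10761 genes that reached 1 FPKM in 3 or more libraries, with a variance trend, two-sided p-values and Benjamini-Hochberg adjustment over all tested genes (threshold 0.05). The steps were tested on simulated data. The text names all 9 genes, the 3 genes per list with the smallest adjusted p, and the 3 nearest profiles of WWC1 and WWC2; others were chosen after their values were seen. One of the genes this rule names is not reported here. The genes and lists were chosen with earlier results of these data known. Alternatives were another pseudocount, filters, scalings, a replicate block, no variance trend, limma-voom on recovered reads and leaving out each library. Read numbers and floors cover counting error only.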

Additional observations from a re-analysis of the deposited data

How the results depend on the processing

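The directions of WWC1, WWC2, WWC3, AMOTL1, AMOTL2, FRMD6 and TJP1 were the same under all 14 alternatives. Log2 changes ran from -1.24 (limma-voom on recovered reads) to -1.01 for WWC1 and from 0.69 to 0.83 for WWC2. For AMOTL2 the sign held only nominally, with -0.02 after median-of-ratios scaling and -0.01 after quantile normalization. PTPN14 ran from -0.06 to 0.33. The filters, the replicate block and the dropped variance trend cannot alter a log2 change, so their agreement on direction was fixed in advance. Leaving out 1 library cannot reverse WWC1, WWC2 or WWC3 either, since their groups do not overlap. The count of the 8 tested genes of the set that were called, 4, went to 2 after median-of-ratios scaling and after quantile normalization, and to between 2 and 4 when 1 library was left out. Without a filter it was 3 of 9, and at 0.1 FPKM 5 of 9. It was 2 without control replicate 1, control replicate 3, YAP replicate 1 or YAP replicate 2. Over all genes 3868 were called, and between 2290 and 3515 when 1 library was left out, with 909 to 1326 higher and 1381 to 2189 lower; the lowest counts were those without YAP replicate 1. Median-of-ratios scaling gave 1507 lower genes in place of 2476.

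Deviations from the group mean correlated across genes at -0.02, 0.59 and 0.60 between libraries numbered 1, 2 and 3. They correlated at -0.56 between control replicate 2 and YAP replicate 3, and at -0.62 between control replicate 3 and YAP replicate 2. These values do not settle whether the numbers pair the samples, and the main fit left the numbers out. With a replicate block, 5573 genes were called in place of 3868. The replicate block gave 3745 lower genes, 25 lower genes over the pathway lists in place of 14, and 6 called genes of the set, with FRMD6 and TJP1 added; TEAD3 and VGLL4 also passed there. Of the 24 calls in the pathway lists, those of WWP2, AJUBA, FRMD4B and CDH11 were lost under at least 1 alternative; F11R fell below the filter when any library labelled YAP was left out. AMOT, with 8 to 15 reads in the libraries labelled YAP, is limited by depth.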

Other observations

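Several genes of epithelial junctions lay below the filter and entered no test, and the values here were picked after they were seen. OCLN, which encodes the tight junction strand protein occludin, had 5, 2 and 3 reads in controls but 19, 15 and 18 in those labelled YAP. The groups did not overlap, although the controls were at or near the floor of 3 reads. CDH1, the epithelial cadherin, went the other way, as given above, and CDH2, the cadherin of mesenchymal cells, stood at 8.76 ± 1.09 and 13.0 ± 0.99 FPKM (SD, n = 3 each). CDH11, the most abundant of these cadherins, had 221 ± 27.7 and 159.9 ± 16.4 FPKM, so the mesenchymal cadherins did not share a direction. PATJ, a polarity scaffold that can bind WWC1, was expressed at 142 to 212 reads per library, or 0.55 to 0.75 FPKM, below the filter of 1 FPKM.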
